A study of Mus musculus with 10 samples.

Results

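Epididymal white fat of obese mice that lack caspase-1 was compared with the same fat of obese wild-type mice. The comparison took the 3 arrays labelled Casp1-/- (caspase 1 null) and the 4 labelled WT, 7 of the 10 arrays in the study. The other 3 arrays are ASC-/- and serve as levels set beside the others and in 1 further contrast; they also enter the estimate of the spread between arrays, and a fit of the 7 arrays alone gave 469 genes past the threshold in place of 1397. All animals were male mice of C57/Bl6 background. The high fat diet (45 energy% of fat) began at an age of 8 to 12 weeks and lasted 16 weeks, so controls and null mice were all diet-fed and no lean mice enter. Each array held the RNA of 1 mouse. The labels do not say how the Casp1 allele was made, and loss of the gene was not limited to 1 cell type.

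Caspase-1 is the protease of the inflammasome, a complex that a sensor protein and the adaptor ASC (gene Pycard) build in response to danger signals. It cuts the precursors of interleukin-1beta and interleukin-18 into their active forms. Fat that expands on a high fat diet takes up macrophages, many of which gather lipid around dying adipocytes, while its adipocytes make and store triglyceride under the control of insulin. The study asked what the inflammasome contributes to diet-induced obesity and insulin resistance. Because the arrays carry bulk tissue RNA, fewer cells of a type and less RNA per cell cannot be told apart.

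All values are log2 signals, so a difference of 1 is a doubling. The tissue label fits its defining markers: adiponectin (Adipoq) lay at 13.23 to 13.73 on the 7 arrays and leptin (Lep) at 12.02 to 12.87. Control probe sets meant to bind nothing reached 5.01, and a group mean below that level is called within background. Poly-A spike-in controls, transcripts added to the RNA before labelling, are read by 24 probe sets; their mean was 7.51 to 8.07 on the Casp1-/- arrays and 7.80 on WT replicate 1, against 5.76 to 6.50 on WT replicates 2 to 4. The 3' minus 5' signal of actin was 0.82 to 0.98 in Casp1-/- and ran from 0.46 (WT replicate 4) to 1.05 (WT replicate 1) in WT. On the first principal component, 50.5% of the variance, the Casp1-/- arrays lay at -46.5 to -34.9, WT replicate 1 at -13.0, WT replicate 2 at -0.64, WT replicate 4 at 25.3 and WT replicate 3 at 48.8. The counts, most lists and many genes are therefore also given with the spike-in level as a block, a fit in which the difference rests on WT replicate 1 alone, or with arrays left out.

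Casp1 itself was the gene with the largest fall. Its signals were 4.86, 4.98 and 4.69 on the Casp1-/- arrays and 8.71, 9.09, 9.99 and 9.49 on the WT arrays, so that the null arrays lay within background. Casp4, the neighbouring gene that encodes caspase-11, a sensor of cytosolic lipopolysaccharide, also fell, with 6.50, 6.24 and 6.60 against 7.64, 8.03, 8.37 and 8.06 (log2 difference -1.58 ± 0.15 SE, limma adjusted p = 0.0042). The ASC-/- arrays lay at the WT level for both genes, Casp1 at 9.30 to 9.47 and Casp4 at 8.12 to 8.19. Of 57 tested neighbours of Casp1 on chromosome 9, 2 were higher (Cfap300 and Arhgap42) and 6 lower (Casp4, Pdgfd, Mmp12, Mmp3, Mre11a and Fat3), so that 8 of 57 passed, beside 8.17% of all genes. Pycard fell by 1.23 on the log2 scale (adjusted p = 0.038), but by 0.51 with the block, and it passed in 2 of the 7 fits that left out 1 array. Its other 2 probe sets, both at background, differed by -0.17 and 0.11.

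Over all 17097 genes, 1397 (8.17%) passed an adjusted p of 0.05. Of these, 737 were higher in Casp1-/- fat (4.31%) and 660 lower (3.86%). The falls were the larger: 357 of the lower genes and 147 of the higher genes changed more than 2-fold, and the median log2 difference was -1.07 among the lower genes and 0.66 among the higher. The Casp1-/- and WT arrays did not overlap in 736 of the 737 higher and 657 of the 660 lower genes, against 24.7% of all genes. The same arrays chose these genes, so the lack of overlap is no further support for the calls. Where a gene had further probe sets above background, these had the same sign in 228 of 239 cases for the higher genes and in 274 of 282 for the lower. Over all further probe sets, dim ones included, the counts were 465 of 551 and 482 of 550. These probe sets read the same RNA on the same arrays, so they add no further mice. The share among genes that did not pass was not counted. The median difference over all genes was 0.04.

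**Figure D1:**
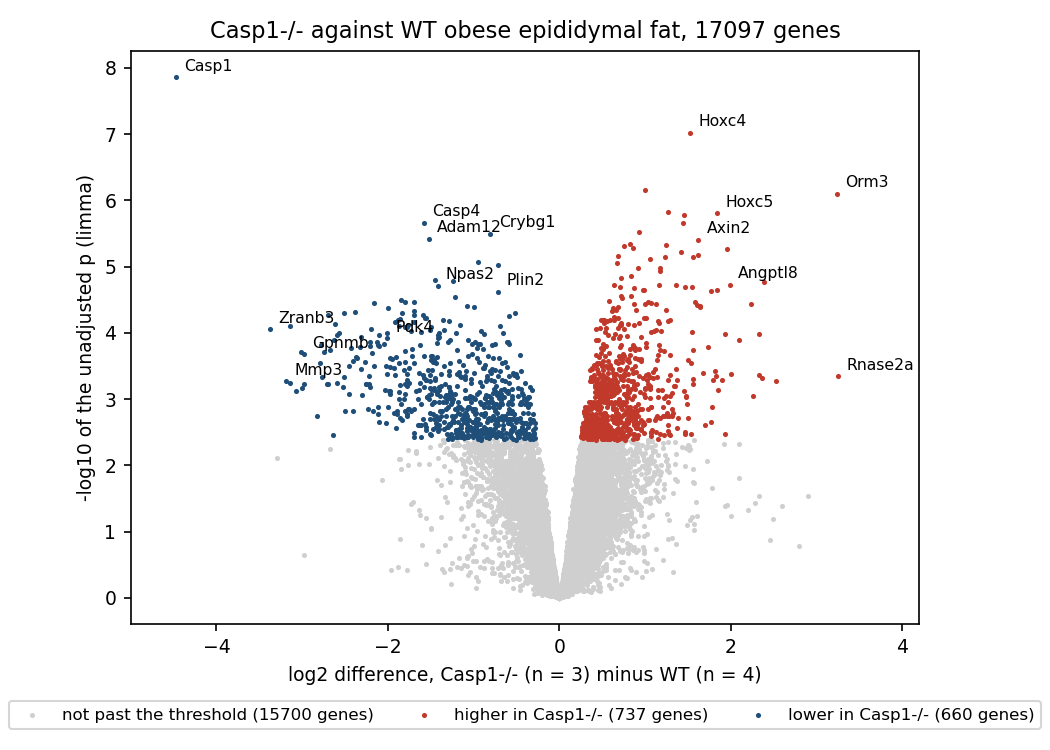
Each point is 1 of 17097 genes, with the log2 difference between Casp1-/- (n = 3) and WT (n = 4) arrays on the horizontal axis and the -log10 of limma's unadjusted p on the vertical axis. Coloured points passed an adjusted p of 0.05 (737 higher, 660 lower); the lower genes reach further from 0 than the higher ones, and Casp1 (-4.47) lies farthest to the left.

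These counts depended on single mice. They were 308 without Casp1-/- replicate 1, 64 without replicate 2 and 271 without replicate 3, and 3018, 1408, 1023 and 346 without WT replicates 1, 2, 3 and 4. With the spike-in level as a block 120 genes passed (0.702%), 29 higher and 91 lower, and 92 of them had not passed without it. Among these 92 are genes far higher on WT replicate 1 than on the rest, such as the muscle genes Ckm (6.57 there and 3.20 to 3.70 on the other 6 arrays) and Des (9.46 there and 5.98 to 6.60), which were picked out after their values had been seen. Every one of the 737 higher and 660 lower genes kept its sign with the block. For genes whose groups did not overlap this was fixed in advance, because the blocked difference is the Casp1-/- mean minus WT replicate 1. It is thus no sign of stability. The size changed unevenly, with the median of the higher genes moving from 0.66 to 0.55 and that of the lower genes from -1.07 to -0.58. In 532 of the 660 lower genes (80.6%) WT replicate 1 was the WT array nearest to the Casp1-/- mean, against 246 of the 737 higher genes (33.4%) and 37.0% of all genes. Falls thus shrank more than rises against the WT mouse with high spike-in signal. The part of the spike-in level in either was not tested.

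**Figure D2:**
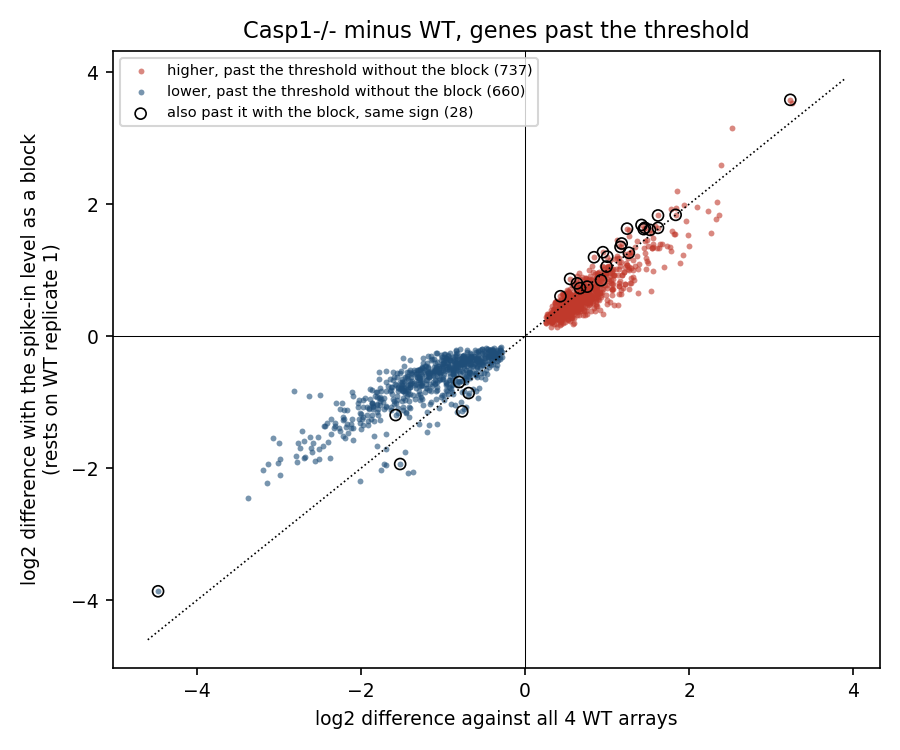
For the 1397 genes past the threshold, the log2 difference against all 4 WT arrays (horizontal) is set against the difference with the spike-in level as a block (vertical), and the dotted line marks equal values. Most lower genes lie above the line, closer to 0 with the block (median -0.58 in place of -1.07), higher genes lie nearer to it (0.55 in place of 0.66), and circles mark the 28 genes that passed in both fits.

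The largest rises included 3 genes of secreted proteins, Orm3, Rnase2a and Agt. Orm3, an orosomucoid of the acute phase family, gave 6.53, 6.90 and 7.44 in Casp1-/- and 3.38, 4.30, 3.67 and 3.55 in WT, a difference of 3.23 ± 0.28 (SE, adjusted p = 0.0034) in which WT lay within background on every array. Rnase2a, a ribonuclease of the eosinophil family, rose by 3.25 (7.58, 6.10 and 7.91 against 3.66, 5.71, 3.18 and 3.22), with WT replicate 2 close to the lowest null array and the WT mean within background. Angiotensinogen (Agt), the precursor of angiotensin, rose from 7.75, 8.17, 6.63 and 6.23 to 9.60, 9.64 and 9.32 (difference 2.32). The rule that picked the largest rises and falls asked for no overlap, so in none of these 3 genes could a WT mouse reach a null mouse. The other large rises were Csprs (2.53), Adamtsl2 (2.38), a matrix glycoprotein, Folh1 (2.36), a glutamate carboxypeptidase, Prkag3 (2.34), a regulatory subunit of AMP-activated protein kinase, Lrrc4c (2.26), a netrin-G ligand, Stc2 (2.23), a stanniocalcin, Nrip2 (2.10), Zfp185 (2.00) and Angptl8 (1.99). The WT means of Adamtsl2, Folh1 and Nrip2 lay within background, so the sizes of these rises are uncertain. Both further probe sets of Lrrc4c, at background, differed by 0.21. Adamtsl2, Orm3 and Angptl8 passed in all 7 fits with 1 array left out, while Rnase2a, Csprs, Folh1, Lrrc4c and Zfp185 passed in 3 of 7.

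The largest falls after Casp1 were those of Zranb3, Mmp3 and Atp6v0d2. Zranb3, an annealing helicase, gave 5.58, 4.39 and 6.16 in Casp1-/- and 7.83, 8.27, 9.72 and 9.20 in WT (difference -3.38 ± 0.52 SE, adjusted p = 0.0116). Mmp3, a stromelysin that degrades matrix, gave 4.11, 3.53 and 4.44 against 6.05, 6.10, 8.85 and 7.87, the null arrays within background. Atp6v0d2, a subunit of the proton pump that acidifies lysosomes, gave 8.42, 7.04 and 8.62 against 10.25, 10.82, 12.01 and 11.61. In each of the 3 the lowest WT mouse was replicate 1 and the highest was replicate 3. Rgs1 (-3.14), a brake on G protein signalling, Hpgds (-3.07), which makes prostaglandin D2, Cd72 (-3.01), an inhibitory receptor, Vsig8 (-3.00), Gpnmb (-2.98), a glycoprotein of lipid-laden macrophages, Glipr1 (-2.98), Anpep (-2.82), an aminopeptidase, Atf3 (-2.80), a stress-induced transcription factor, and Pkib (-2.78), an inhibitor of protein kinase A, followed. The Casp1-/- means of Mmp3, Hpgds, Anpep and Pkib lay within background, so the sizes of these falls are uncertain. With the block the 12 falls came to between -2.46 (Zranb3) and -0.83 (Anpep), and none passed. Anpep passed in 1 of the 7 fits with an array left out and the other 11 in 3 to 6.

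**Figure D3:**
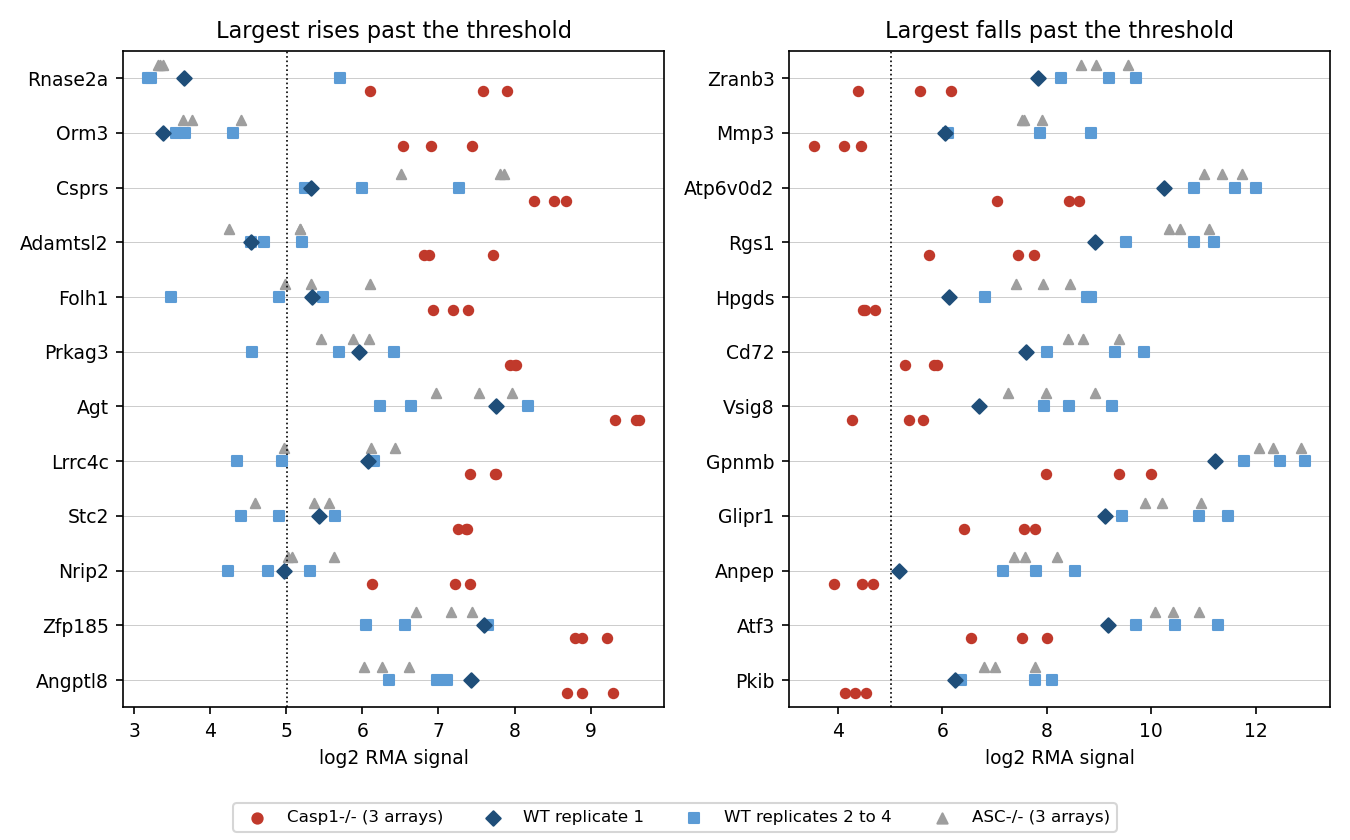
Log2 signals of the 12 largest rises and 12 largest falls are drawn by array, with Casp1-/- arrays as circles, WT replicate 1 as a diamond, the other WT arrays as squares and ASC-/- arrays as triangles; the dotted line at 5.01 is the highest background control. By the rule that picked the genes no Casp1-/- array reaches a WT array. In the falls WT replicate 1 is the WT array nearest to the circles (6.05 for Mmp3, beside 4.44).

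Only 19 genes passed in the comparison itself, with the block and in all 7 fits that left out an array, 15 of them higher and 4 lower. These fits chose the genes, so their passing is no further test. The 4 lower genes were Casp1, Casp4, Adam12 and Crybg1. Adam12, a metalloprotease of mesenchymal progenitor cells, gave 7.48, 7.55 and 7.83 in Casp1-/- and 9.56, 8.98, 9.09 and 8.95 in WT, a difference of -1.52 that came to -1.94 with the block. Crybg1 lay at 5.66 to 5.83 in Casp1-/- and at 6.44 to 6.64 in WT. The groups did not overlap in either gene, and for Adam12 WT replicate 1 was the WT array farthest from the null mice.

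Of the 15 higher genes 2 were homeobox genes. Hoxc4, a homeobox gene that marks position along the body axis, gave 8.16, 8.19 and 8.27 in Casp1-/- and 6.60, 6.90, 6.72 and 6.52 in WT, a difference of 1.52 ± 0.11 (SE, adjusted p = 0.00081). Its neighbour Hoxc5 gave 6.42, 6.87 and 6.93 against 4.90, 4.80, 4.64 and 5.26. A second probe set of Hoxc5, at background, differed by 0.38. The spread within each genotype was small beside these differences. The cluster was looked at as a whole after these values had been seen. Of 6 HoxC genes tested 3 were higher, beside 4.31% of all genes. Hoxc4 and Hoxc5 prompted the look and are among the 3, so the count is no support for a change of the cluster. The third was Hoxc8 (11.12, 11.31 and 11.13 against 10.52, 10.55, 9.76 and 10.25). It differed by 0.91, and by 0.66 with the block, where it did not pass. Hoxc9 differed by 0.45, Hoxc10 by -0.18 and Hoxc13 by -0.03, none past the threshold. None of the 9 HoxA, 10 HoxB or 9 HoxD genes passed, with medians of -0.04, 0.11 and 0.08. The HoxC median of 0.68 includes Hoxc4 and Hoxc5.

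Regulators of growth factor pathways in the same group of 15 were Gli2, Axin2 and Smad7. Gli2, a transcription factor of hedgehog signalling, rose by 1.45 (6.28, 6.84 and 6.47 against 4.91, 4.99, 5.17 and 5.27). Axin2, a feedback inhibitor and target of Wnt signalling, rose by 1.62 (7.59, 8.03 and 7.77 against 5.97, 6.50, 5.88 and 6.35). Smad7, which inhibits transforming growth factor beta receptors, rose by 1.46 (6.99, 7.32 and 7.14 against 5.51, 5.84, 5.62 and 5.80). The null mice were higher than every WT mouse in all 3 genes, and with the block the differences were 1.62, 1.83 and 1.64. A further probe set of Axin2, at background, differed by 0.03, while that of Gli2 differed by 1.05. Partners looked up after these values had been seen moved in part: Smo, the hedgehog signal transducer, rose by 0.88 (0.63 with the block) and Znrf3, an inhibitor of Wnt receptors, by 0.64 (0.65 with the block). Gli1 (0.21), Gli3 (-0.02), Ptch1 (0.65), Nkd1 (1.03) and Smad6 (0.55) did not pass. Neither did Axin1 (-0.13), Rnf43 (-0.27), Notum (-0.14) and Tgfbr1 (-0.75), among others. Of 6 hedgehog genes 2 were higher, of 10 Wnt feedback genes 2 and of 7 of transforming growth factor beta 1, beside 4.31% of all genes. The medians were 0.47, 0.05 and 0.30. Gli2, Axin2 and Smad7 prompted the look and are counted, so the counts are no support for a change of these pathways.

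The remaining genes of the 15 had other roles. Hspb7, a small heat shock protein, gave 9.57, 9.55 and 9.90 in Casp1-/- and 8.03, 8.53, 7.67 and 7.97 in WT, and its further 2 probe sets differed by 1.24 and 1.51. Cmklr1, the receptor of the adipokine chemerin, gave 9.37, 9.59 and 9.88 against 8.21, 8.59, 8.51 and 8.43. Genes related to it were looked up after the values had been seen. Chemerin itself (Rarres2) differed by 0.26 (limma adjusted p = 0.31), and Gpr1, a second chemerin receptor, rose by 0.65. Ccrl2, looked up with them, differed by 0.12 and did not pass. Against ASC-/- Gpr1 differed by 0.37 and did not pass. Adamts1, a metalloprotease of the matrix, gave 9.64, 9.37 and 9.26 against 8.07, 8.20, 8.27 and 8.50. Prrt4 rose by 1.27 from a WT mean within background, and its 2 other probe sets, at background too, differed by 0.09 and 0.15. The rest were named after their values had been seen: Slc9b2 (1.42, from a WT mean within background), a sodium and proton exchanger, Tulp3 (0.99) and Ift27 (0.76), both of protein transport in cilia, Slc22a18 (0.93), a membrane transporter, and Hs2st1 (0.67), an enzyme that modifies heparan sulfate. For Tulp3, Ift27 and Hs2st1 the arrays formed narrow groups, as in Tulp3 with 7.35, 7.20 and 7.23 against 6.20, 6.32, 6.32 and 6.21. Further probe sets differed by -0.0047 and 0.34 (Tulp3), 0.56 (Ift27), 0.01 (Slc22a18) and 0.33 and 0.34 (Hs2st1).

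**Figure D4:**
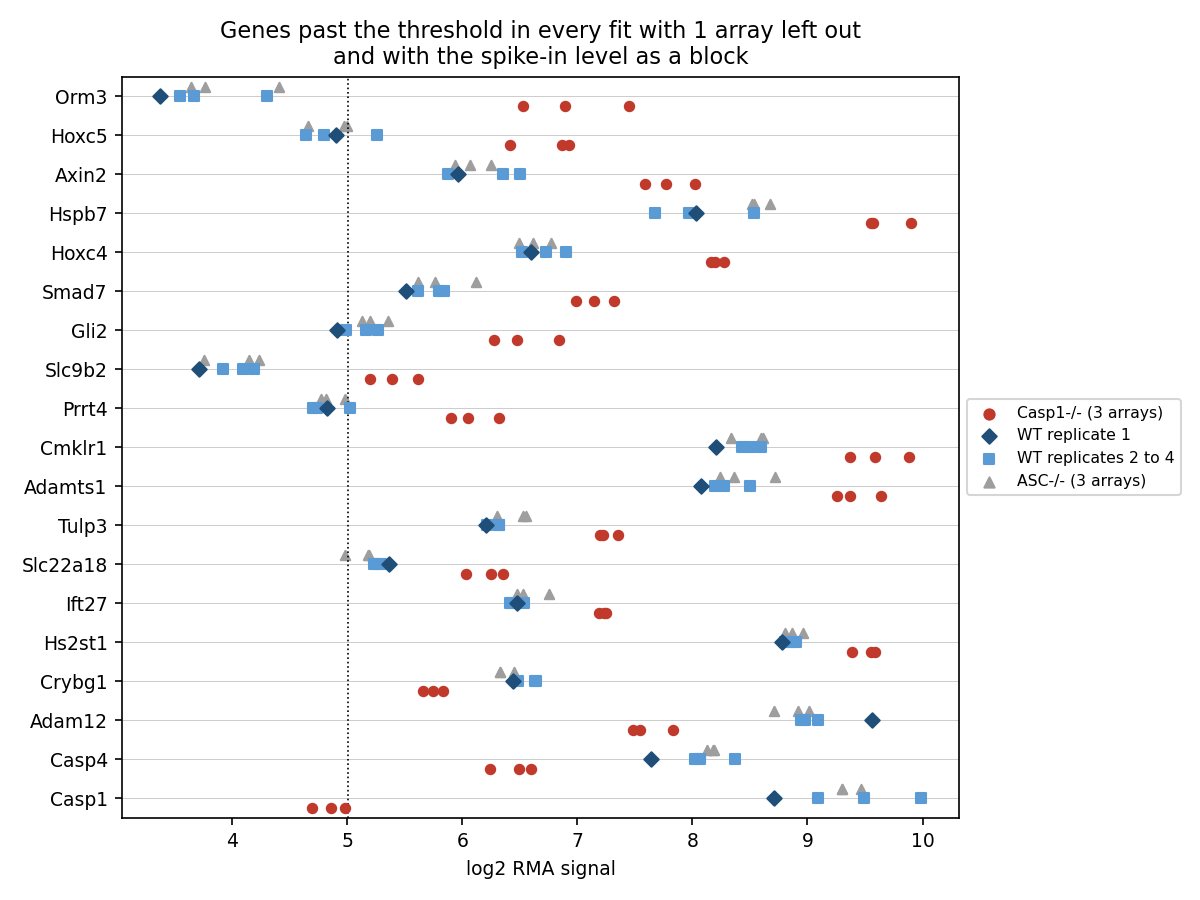
Log2 signals by array of 19 genes are drawn in order of their difference. These genes passed in the comparison, with the spike-in level as a block and without any single Casp1-/- or WT array. Circles are Casp1-/- arrays, the diamond WT replicate 1, squares the other WT arrays and triangles ASC-/- arrays. The dotted line is the highest background control (5.01). Casp1-/- arrays are set apart from WT arrays in every row, from Orm3 (3.23) to Casp1 (-4.47).

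Genes of fat storage were described by lists, and list counts here and below stand beside 4.31% of all genes higher and 3.86% lower. Among 15 genes of mature adipocytes 1 rose, none fell and the median difference was 0.57, beside 0.04 over all genes and 4.31% of all genes higher. Averaged over the list, signals were 11.78, 11.71 and 11.82 in Casp1-/- and 11.53, 11.49, 10.59 and 11.51 in WT. WT replicate 3 thus lay below the other WT mice, and without it the median was 0.29. With the block it was 0.19. The gene that passed was Pparg, the master regulator of adipocyte differentiation, with 11.14, 11.20 and 11.48 in Casp1-/- and 10.32, 10.50, 10.06 and 10.70 in WT (difference 0.88 ± 0.18 SE, adjusted p = 0.0234, 0.95 with the block). It passed in 4 of the 7 fits with an array left out. Adipoq (0.22) and Lep (0.31) did not pass.

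Enzymes that build fatty acids and triglyceride were higher in part. Of 15 lipogenesis genes 3 rose and none fell (median 0.34, and 0.17 with the block), beside 4.31% of all genes higher. Acetyl-CoA carboxylase (Acaca), the committed step of fatty acid synthesis, gave 10.12, 10.24 and 10.33 in Casp1-/- and 9.46, 9.32, 8.39 and 9.13 in WT. Fatty acid synthase (Fasn) gave 12.42, 12.44 and 12.68 against 12.05, 11.91, 11.05 and 11.59, and Mlxipl, the carbohydrate-responsive factor ChREBP, gave 8.77, 8.84 and 9.02 against 8.08, 7.88, 7.04 and 7.95. In all 3 the null mice stood above every WT mouse, and WT replicate 3 was lowest. Their differences were 1.15, 0.86 and 1.14, and 0.77, 0.46 and 0.80 with the block, where none passed. Each passed in 3 of the 7 fits with an array left out.

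Triglyceride synthesis and the lipid droplet moved in both directions. Of 16 genes 3 rose and 1 fell (median 0.45, 0.28 without WT replicate 3 and 0.17 with the block). Of all genes 4.31% were higher and 3.86% lower. Both monoacylglycerol acyltransferases, which turn monoacylglycerol into diacylglycerol, rose. Mogat1 gave 8.60, 9.08 and 8.58 in Casp1-/- and 7.52, 7.34, 5.24 and 7.21 in WT (difference 1.93 ± 0.50 SE, adjusted p = 0.0459), and Mogat2 gave 8.70, 8.70 and 8.77 against 7.36, 7.60, 6.59 and 7.35 (1.50 ± 0.26 SE, adjusted p = 0.0168). WT replicate 3 was lowest in both, and the null mice stood above every WT mouse. Mogat1 passed in 2 and Mogat2 in 4 of the 7 fits with an array left out. Fitm1, a fat storage protein, rose by 0.46 within background. Perilipin 2 (Plin2), a droplet coat protein of many cell types including foam cells, fell from 13.15, 13.23, 13.37 and 13.28 to 12.61, 12.36 and 12.66 and passed in all 7 fits with an array left out (difference -0.71 ± 0.09 SE, adjusted p = 0.0083; -0.61 with the block). The 2 other adipocyte lists on the same theme gave no calls: lipolysis had a median of 0.32 over 11 genes (-0.02 with the block), and 11 genes known to rise with fat mass had a median of 0.32 (0.17 with the block). Without WT replicate 3 these medians were 0.12 and 0.16.

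Fuel partitioning showed a pair of changes in opposite directions, neither of which passed with the block. Angptl8, a circulating inhibitor of lipoprotein lipase that insulin induces, gave 8.69, 9.29 and 8.88 in Casp1-/- and 7.42, 7.11, 6.35 and 6.98 in WT (difference 1.99 ± 0.25 SE, adjusted p = 0.0082; 1.53 with the block). Pdk4, the kinase that shuts off pyruvate dehydrogenase in fasting, gave 7.79, 7.32 and 7.85 against 9.84, 9.52, 8.87 and 10.41 (difference -2.01 ± 0.32 SE, adjusted p = 0.0125; -2.19 with the block). Angptl8 was thus higher and Pdk4 lower in every null mouse than in any WT mouse. Pdk4 passed in 6 of 7 fits with an array left out, and it was the only one of 18 genes of fatty acid oxidation to pass (median of the list 0.02). Pdk3, a related kinase looked up after the values had been seen, rose by 0.83. Fabp5, a fatty acid binding protein shared with macrophages, fell by 0.36, and with Angptl8 it made up the calls among 14 genes of fatty acid uptake.

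Insulin signalling and branched-chain amino acid breakdown gave few calls. Of 19 insulin and glucose transport genes 1 rose, Grb10 (0.52), an adaptor that restrains the insulin receptor. This share (5.26%) was near the 4.31% of all genes that were higher. The glucose transporter GLUT4 (Slc2a4) gave 9.30, 9.54 and 9.58 in Casp1-/- and 8.85, 8.78, 7.06 and 8.55 in WT, a difference of 1.16 that did not pass (adjusted p = 0.0847) although the groups did not overlap. The receptor Insr (0.41) and its substrate Irs1 (0.42) did not pass, and their values with the block were -0.02 and -0.10. Of 18 enzymes that break down branched-chain amino acids 17 had positive differences (57.3% of all genes did) and in 15 the groups did not overlap (24.7% of all genes), but 2 passed, Dbt (0.68), a subunit of the branched-chain ketoacid dehydrogenase, and Hsd17b10 (0.51). The median was 0.56, 0.33 without WT replicate 3 and 0.25 with the block. Averaged over the list, signals were 9.60 to 9.68 in Casp1-/- and 9.40, 9.34, 8.61 and 9.24 in WT, where replicate 3 again lay lowest.

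Mitochondrial and thermogenic genes showed no calls in the fit without the block. None of 34 respiratory chain genes (median 0.12), 20 genes of the citric acid cycle (0.16) or 15 genes of brown and beige adipocytes (0.02) passed with limma. Without WT replicate 3 the first 2 medians were each 0.06. With the block the 3 medians were -0.02, -0.01 and -0.17. Ucp1, the uncoupling protein of brown fat, lay at 3.56 to 3.65 in Casp1-/- and at 4.74, 3.97 and 3.89 in WT replicates 1 to 3, with WT replicate 4 alone at 9.30. Of 19 genes of cholesterol synthesis 1 fell, Msmo1 (-0.43). Of 19 antioxidant genes none passed (median 0.01).

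The circadian clock list had calls in both directions, with 3 of 17 genes higher and 1 lower (median 0.28, and 0.32 with the block). Over all genes 4.31% were higher and 3.86% lower. Npas2, a partner of the clock protein BMAL1, gave 3.45, 3.35 and 3.18 in Casp1-/- and 4.56, 4.81, 4.92 and 4.69 in WT. It passed in all 7 fits with an array left out, but every one of these signals lies within background and a second probe set differed by -0.11. The repressors Cry2 (0.88) and Bhlhe40 (0.81) and the transcription factor Tef (0.64) rose, with values of 0.65, 1.07 and 0.66 with the block. Bhlhe40 gave 9.34, 9.73 and 9.43 against 8.43, 8.55, 9.19 and 8.58. Tef and Bhlhe40 each passed in 1 of 7 fits with an array left out and Cry2 in 3. The labels do not give the time of day at which the fat was taken.

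Most of the macrophage genes listed fell. Of 21 genes shared by macrophages 17 fell and none rose (median -1.41, beside 0.04 over all genes and 3.86% of all genes lower), and of 15 genes of lipid-associated macrophages 12 fell (median -1.78). With the block both lists had no calls, and the medians were -0.68 and -1.01. The mean of the first list was 9.43, 9.13 and 9.42 in Casp1-/- and 10.01, 10.46, 11.41 and 10.99 in WT replicates 1 to 4. WT replicate 3, lowest in the adipocyte list, was highest here. Cd68, a phagocyte membrane protein, fell by 2.12 and Adgre1 (F4/80) by 1.97, with -1.26 and -1.23 with the block. Spi1, which encodes the myeloid transcription factor PU.1, gave 6.05, 5.14 and 6.15 in Casp1-/- and 6.79, 8.01, 9.04 and 8.50 in WT (difference -2.30, and -1.01 with the block). Genes of resident and alternatively activated macrophages did not share the fall: of 16, 2 rose, the lectin Mgl2 (1.32) and the chemokine Ccl24 (1.09), and 2 fell, Arg1 (-1.42) and Clec10a (-0.92), with a list median of 0.37 (0.58 without Casp1-/- replicate 3).

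Lysosomal and innate receptor genes fell in part. Of 29 lysosome genes 11 fell and none rose (median -0.44, and -0.22 with the block), beside 3.86% of all genes lower. Gla, the alpha-galactosidase, gave 6.82, 6.48 and 6.59 in Casp1-/- and 7.73, 8.36, 9.34 and 8.70 in WT. The cholesterol exporter Npc1 fell by 1.08, and the proton pump subunits Atp6v1a and Atp6v1b2 by 0.92 and 0.87. Of 14 genes of Toll-like receptor signalling 5 fell, among them the receptors Tlr1 (-2.04) and Tlr7 (-1.16), the co-receptor Cd14 (-1.29) and the trafficking chaperone Unc93b1 (-1.32). The median of this list was -0.75 and turned to 0.04 with the block, though the 4 genes just named had blocked values of -1.01, -0.55, -0.51 and -0.52.

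The inflammasome genes other than the targets fell or did not pass. Of 10, Naip2 (-1.77), a sensor of bacterial secretion systems, P2rx7 (-1.14), the ATP-gated channel that triggers the NLRP3 complex, and Ripk3 (-0.92), a kinase of necroptosis, fell. Nlrp3 lay within background on all 7 arrays (4.18 to 4.52), as did Il1b (3.71 to 4.29) and Tnf (4.08 to 4.81). Il18 lay at 7.78 to 8.50 with overlapping groups. Of 16 interleukin-1 family genes 2 fell: Il1rn, the receptor antagonist (6.35, 5.33 and 6.10 against 7.45, 8.49, 9.28 and 8.96; difference -2.62), and Il1rap (-0.68), the co-receptor, whose 4 other probe sets lay at background and differed by -0.16 to 0.13. The RNA of Il1b and Il18, whose proteins caspase-1 cuts, thus showed no call.

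Dividing cells and antigen presentation followed the macrophage lists in sign. Of 29 cell cycle genes 15 fell, none rose and all 29 had negative differences (median -1.06, and -0.48 with the block). Of all genes 3.86% were lower. The proliferation marker Mki67 gave 6.79, 6.76 and 6.51 in Casp1-/- and 7.67, 8.39, 8.76 and 8.30 in WT. The mitotic kinase Cdk1 fell by 1.86, the survivin gene Birc5 by 1.86 and thymidine kinase Tk1 by 1.95. Among 12 class II antigen presentation genes 5 fell (median -0.45, and -0.14 with the block), and H2-DMb2, a peptide exchange subunit, passed in all 7 fits with an array left out (difference -0.99), though its dimmer probe set differed by 0.18. Of 21 immediate early genes 4 fell, including Fos (-1.91) and Egr2 (-2.10).

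Promoter windows of 250 bases before to 50 after the RefSeq start site (GRCm38.p6) were searched on both strands for the letters bound by factors of these gene groups. There were 17065 windows for 13605 of the tested genes. GAGGAAGT, letters bound by PU.1, stood in 50 of 692 windows of lower genes (7.23%), in 21 of 758 windows of higher genes (2.77%) and in 2.97% of all windows. These letters stood in 3 of 18 windows of pan-macrophage genes and 2 of 15 of lipid-associated macrophage genes. They also stood in 4 of 10 of neutrophil genes, 2 of 14 of resident macrophage genes and 2 of 10 of epididymis and testis genes. TCACGTGA, bound by TFEB and MITF, stood in 6 of 31 windows of lysosome genes (19.4%) and in 1.41% of all. Its share was 2.02% in windows of lower genes and 1.19% in those of higher genes. TTTGAA, the cell cycle homology region, stood in 12 of 26 windows of cell cycle genes (46.2%) and in 13.4% of all. It also stood in 6 of 12 windows of inflammasome genes and 4 of 9 of mesothelial genes, and 15.9% of the windows of lower genes and 11.5% of those of higher genes held it. TCACNCCAC, bound by SREBP, stood in 1.72% of the windows of higher genes and 1.25% of all, and TCAAGGTCA, bound by estrogen-related receptors, in 0 of the 758 windows of higher genes and 0.316% of all. None of these letters contains another of the set. A match is a run of letters and not a measured site.

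The 250 bases before the start site are shown for 2 large falls with the PU.1 letters, for the lysosomal gene with 2 copies of the TFEB letters and for Cdk1, which holds the cell cycle letters in 2 places. Capitals mark the letters searched, on either strand, and each sequence runs 5′ to 3′ along the gene. Cd72 lies on the minus strand at chr4:43454627-43454876, Hpgds on the minus strand at chr6:65144731-65144980, Gla on the minus strand at chrX:134601006-134601255 and Cdk1 on the minus strand at chr10:69352913-69353162.
Cd72: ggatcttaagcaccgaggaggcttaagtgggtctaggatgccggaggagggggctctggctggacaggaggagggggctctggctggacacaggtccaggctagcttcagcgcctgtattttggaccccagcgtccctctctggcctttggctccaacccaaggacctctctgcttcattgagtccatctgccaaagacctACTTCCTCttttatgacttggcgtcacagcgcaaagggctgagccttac
Hpgds: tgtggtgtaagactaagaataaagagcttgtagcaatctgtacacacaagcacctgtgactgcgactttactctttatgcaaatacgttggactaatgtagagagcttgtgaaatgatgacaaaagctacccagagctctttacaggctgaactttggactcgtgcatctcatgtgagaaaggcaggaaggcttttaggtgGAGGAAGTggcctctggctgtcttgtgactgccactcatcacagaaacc
Gla: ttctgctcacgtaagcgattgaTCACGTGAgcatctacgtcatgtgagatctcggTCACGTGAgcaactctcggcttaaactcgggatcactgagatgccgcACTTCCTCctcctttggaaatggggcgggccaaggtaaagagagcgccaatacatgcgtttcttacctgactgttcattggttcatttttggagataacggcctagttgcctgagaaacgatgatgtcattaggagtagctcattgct
Cdk1: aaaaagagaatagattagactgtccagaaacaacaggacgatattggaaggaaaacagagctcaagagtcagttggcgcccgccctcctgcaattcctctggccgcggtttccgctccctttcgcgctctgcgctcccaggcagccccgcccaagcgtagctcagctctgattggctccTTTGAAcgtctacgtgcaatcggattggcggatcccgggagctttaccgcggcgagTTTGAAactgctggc
In Cd72 and Hpgds the PU.1 letters begin 49 bases before the start site, on opposite strands. In Gla the TFEB letters begin 228 and 195 bases before it and the PU.1 letters 148. In Cdk1 the cell cycle letters begin 71 and 15 bases before it. These genes gave, in Casp1-/- and WT, 5.29 to 5.90 and 7.59 to 9.86 (Cd72), 4.47 to 4.72 and 6.12 to 8.86 (Hpgds), 6.48 to 6.82 and 7.73 to 9.34 (Gla) and 5.80 to 6.40 and 7.31 to 8.53 (Cdk1).

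Matrix proteases moved in both directions. Of 17 proteases and inhibitors 6 fell and 2 rose, beside 3.86% and 4.31% of all genes. The median was -0.54, -0.55 with the block, -0.30 without WT replicate 3 and -0.90 without WT replicate 4. Mmp3, Mmp11 (-1.90), Mmp12 (-2.51), the macrophage elastase, and Adam8 (-2.77) fell, while Adamts1 (1.16) and Adamts5 (0.76), both aggrecanases, rose. Adamts5 gave 11.95, 11.75 and 11.89 in Casp1-/- and 11.13, 11.21, 10.94 and 11.14 in WT. Of 24 collagen and matrix genes 1 fell, Col1a1 (-1.07, and -0.26 with the block). Of 23 chemokines and cytokines 6 fell, including Ccl9 (-1.36), Cxcl14 (-1.97) and Tgfb1 (-1.49), and 1 rose, Ccl12 (0.91). Ccl2, a chemokine that draws monocytes, gave 8.43 to 9.13 in Casp1-/- and 8.73 to 9.62 in WT and did not pass.

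Markers of other cells gave few calls. In the T and NK cell list 1 of 21 rose, Cd247 (0.79), the zeta chain of the T cell receptor, with 16 members within background in both groups. This share (4.76%) was near the 4.31% of all genes that were higher, and 3.86% of all genes were lower. Among dendritic cell genes Itgae rose within background (0.54, 1 of 9), and among B cell genes Tnfrsf13b fell (-0.83, 1 of 13). Of these lists 3 and 7 members lay within background in both groups. Neutrophil (11), eosinophil and type 2 (11) and mast cell (10) genes had no calls, but 8, 10 and 4 of them lay within background in both groups. Cma1, a mast cell chymase, ranged from 5.64 to 7.88 in Casp1-/- and from 7.62 to 9.97 in WT. Endothelial genes had a median of 0.49 over 18 genes with 16 positive (57.3% of all genes were), and 0.29 without Casp1-/- replicate 3. Mesothelial genes had a median of 0.63 over 13, which was 0.26 without Casp1-/- replicate 2 (mean of the list 8.07) and 1.05 without replicate 3 (6.64). Neither list had calls. Progenitor and fibroblast genes (14), red blood cell genes (5) and Schwann cell genes (8) had no calls, but 4, 3 and 5 of them lay within background in both groups. Of 19 interferon-stimulated genes Oasl2 (-0.88) and Irf9 (-0.54) fell, and of 22 genes of the unfolded protein response 1 rose, Asns (0.73), and 4 fell, among them Creld2 (-0.67), Manf (-0.36) and Canx (-0.36).

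Genes of other tissues lay mostly within background. The mean of 12 epididymis and testis genes was 4.27, 4.57 and 3.83 in Casp1-/- and 4.75, 4.05, 3.43 and 3.45 in WT, and 9 of the 12 lay within background in both groups. Prm1, a protamine of sperm, ranged from 4.61 to 6.65 in Casp1-/- and from 3.70 to 7.17 in WT. The mean of 14 skeletal muscle genes was 5.42 on WT replicate 1 and 4.33 to 4.78 on the other WT arrays, beside 4.50 to 4.59 in Casp1-/-. The epididymis list and the liver and pancreas list had no calls and the muscle list 1 (Ryr1, -1.11, at background in Casp1-/-). Their part in the results above was not tested.

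**Figure D5:**
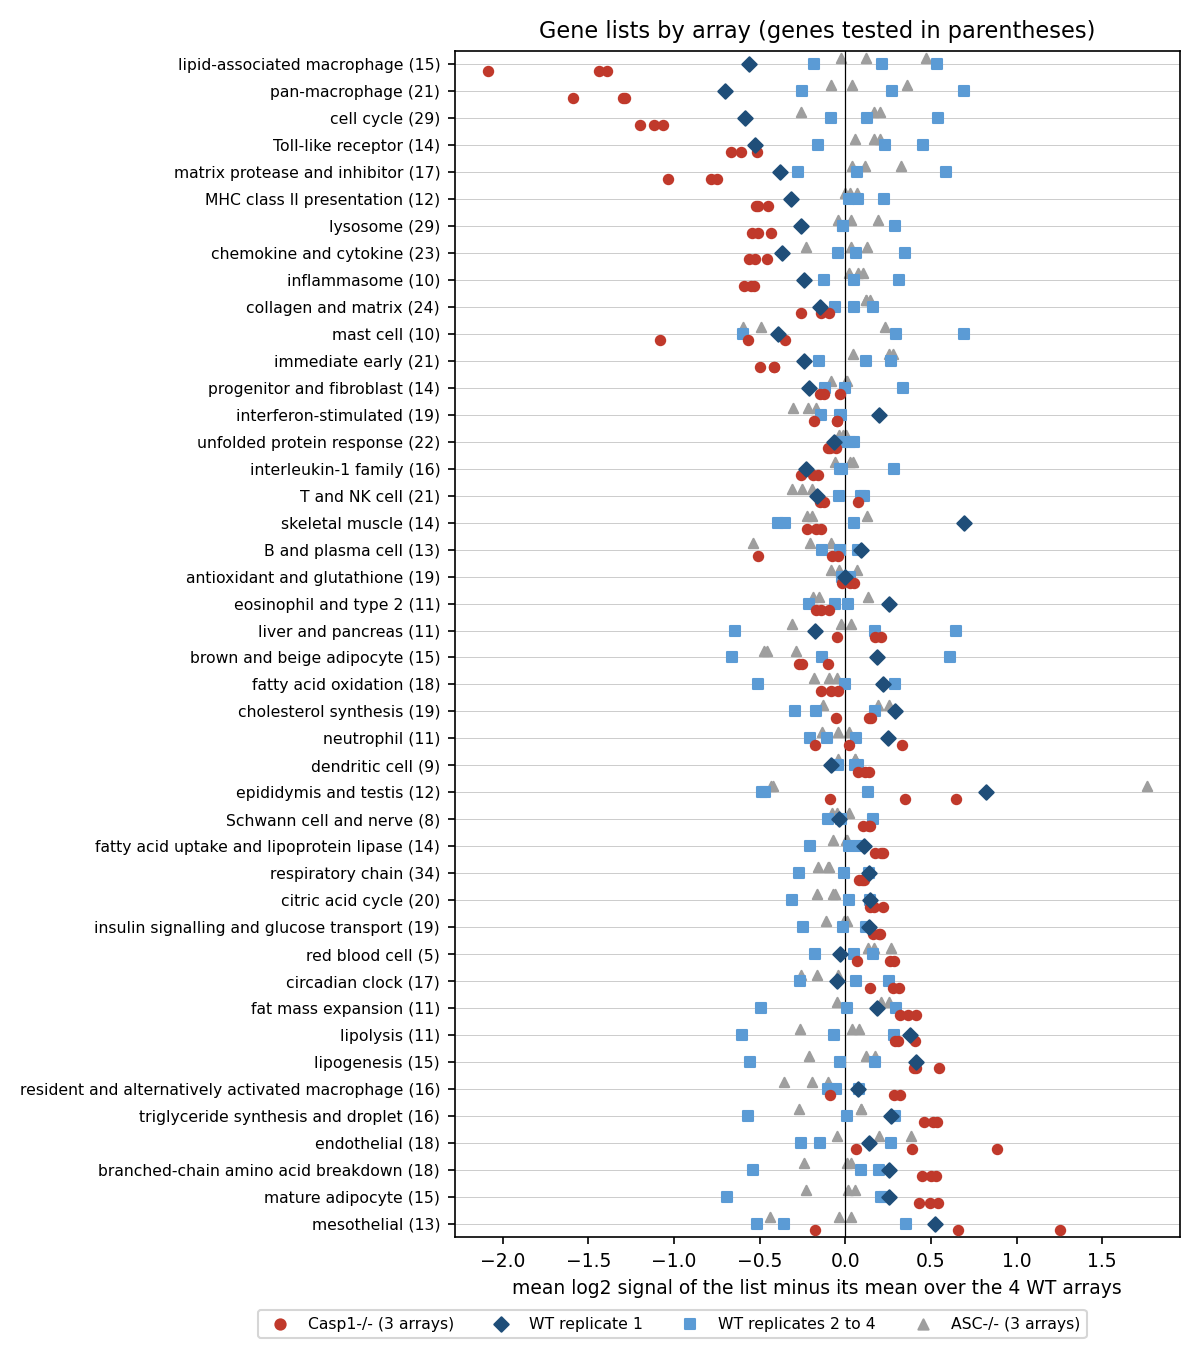
Each row is 1 gene list with its number of tested genes, and each symbol is 1 array's mean log2 signal over the list minus the mean over the 4 WT arrays; circles are Casp1-/-, the diamond WT replicate 1, squares WT replicates 2 to 4 and triangles ASC-/-. The macrophage, cell cycle and protease lists lie lowest in Casp1-/-, the mature adipocyte, triglyceride and amino acid lists lie to the right of 0, and WT replicate 3 is the lowest WT array in these 3 lists and the highest in the pan-macrophage and lipid-associated macrophage lists.

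Fat of ASC-/- mice, which lack the adaptor of the same complex, gave a second reference for the Casp1-/- arrays. In Casp1-/- minus ASC-/- 1264 genes passed (7.39%), and 63 with the block. This contrast shares the Casp1-/- arrays with the comparison above, so it is no independent support, and the values are given side by side. The spike-in mean was 6.21 to 6.30 on the ASC-/- arrays, against 7.51 to 8.07 in Casp1-/-. The 3' minus 5' signal of actin was 0.54 to 0.67, against 0.82 to 0.98. Without the block, genotype and spike-in level cannot be told apart in this contrast. Against ASC-/- and WT in turn, Orm3 differed by 3.02 and 3.23, Hoxc4 by 1.58 and 1.52, Axin2 by 1.71 and 1.62, Angptl8 by 2.66 and 1.99, Pdk4 by -2.18 and -2.01, Adam12 by -1.26 and -1.52, and Cd68 by -2.33 and -2.12, each past the threshold in both. The ASC-/- arrays lay near the WT arrays for Pdk4 (9.93, 10.09 and 9.49) and Axin2 (5.94, 6.07 and 6.25), while for Angptl8 the ASC-/- mean lay below the WT mean. Among the large rises Csprs, Folh1 (1.70) and Lrrc4c (1.80) did not pass against ASC-/-. For Csprs the ASC-/- arrays (6.51, 7.86 and 7.80) lay above most WT arrays, and the difference from Casp1-/- was 1.09 (adjusted p = 0.23). Fasn (0.73) and Mlxipl (0.97) did not pass against ASC-/-.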

How the data were processed

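The deposited values are log2 signals of 45141 probe sets on Affymetrix HT_MG-430 PM arrays, which the authors computed with RMA according to the submitters' processing notes (deposited log2 table); RMA gives all arrays 1 distribution, so changes in total RNA leave no trace and small signals are compressed. The genome build of the probe sets was not given in the sources used here. Of the probe sets, 28898 had 1 gene symbol; the brightest of these on average (10 arrays) stood for each of 17097 genes, with no filter on dim genes. limma 3.58.1 in R 4.3.3 fitted 1 mean per genotype over all 10 arrays, and p-values were adjusted by Benjamini-Hochberg over all genes (threshold 0.05). The script was checked on simulated data. The number of arrays limits the precision.

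Members and lists (44, with 719 of 827 entries matched) were chosen with earlier results of these data known. Named genes were the targets and Casp4, the 12 largest rises and falls without overlap and with a group mean of at least 6, the 10 largest that also passed with the spike-in block and without each array, up to 4 called members of each list (2 of the highest level where none passed) and 17 fixed genes. Alternatives were other normalizations, filters, summaries and variance models, array weights, blocks, an actin covariate and leaving out each Casp1-/- or WT array. The ASC-/- arrays were never left out singly.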

Additional observations from a re-analysis of the deposited data

Results flagged for a closer look

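Of 196 genes and lists examined in the 4 WT arrays, 7 had 1 array set apart from the other 3 by more than Dixon's limit, where chance sets apart about 1 in 20. WT replicate 3 was low for 5 of them: the mean of the mature adipocyte list (10.6), the glucose transporter Slc2a4 (7.06), the acyltransferase Mogat1 (5.24), the clock repressor Cry2 (6.41) and the dehydrogenase subunit Dbt (7.97). WT replicate 4 was high for Ucp1 (9.30), the uncoupling protein of brown fat. WT replicate 1 was high for Gata3 (8.09), a transcription factor of T cells and several epithelia, which lay at 3.41 to 4.12 on the other WT arrays.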

How the results depend on the processing

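Against 1397 genes past the threshold (737 higher and 660 lower), array weights gave 2998 (1622 and 1376), a fit of the Casp1-/- and WT arrays only 469 (273 and 196) and the spike-in level as a block 120 (29 and 91). Replicate numbers do not pair the mice (correlations of same-numbered deviations -0.11, 0.13 and 0.19); with the replicate number as a block 9 genes passed (8 and 1), and 3404 had an unadjusted p under 0.05. Leaving out 1 array gave 64 to 3018 genes, 46 to 1579 higher and 18 to 1439 lower. For Casp1-/- minus ASC-/-, 1264 genes became 3428 with array weights, 231 with the actin covariate, 63 with the spike-in block and 19 with the replicate block. Leaving out 1 Casp1-/- array gave 68 to 352 genes in this contrast. Leaving out 1 WT array, which there enters only the estimate of the spread, gave 868 to 2615. No ASC-/- array was left out. For Casp1-/- minus WT, quantile normalization, centring, the dim filter, means over probe sets and the trended robust model gave 1244 to 1661 genes.

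No named gene past the threshold reversed under any of these alternatives. With the spike-in block or an array left out this was fixed in advance for genes whose groups did not overlap. Of 110, 101 lost the threshold with the replicate block, 96 with the spike-in block and 49 in the fit of the Casp1-/- and WT arrays only. Further, 91 lost it without Casp1-/- replicate 2, 68 without replicate 3, 64 without replicate 1 and 62 without WT replicate 4. The spike-in block moved 19 list medians by over 1 SD. Signals within background, 103 of the higher and 33 of the lower genes in both groups, limit what small differences show.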
